A study of Mus musculus with 2 samples.

Results

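This report describes 42 genes of the extracellular matrix, chosen by name with earlier results of these data known. They are the laminins and their basement membrane partners, the proteoglycans, and the glycoproteins of the interstitial matrix. Of these, 40 were found by symbol in a deposited table of 12557 mouse genes, and Lama1 and Has2 were not analysed here. The genes were measured by RNA sequencing of cells from the embryonic sinoatrial node, the small region of the heart that sets its rhythm. Mouse embryos of the ICR strain all carried Hcn4-CreERT2, a tamoxifen-inducible recombinase placed under the control of the pacemaker channel gene Hcn4, and Rosa-tdTomato, a red reporter that recombination switches on. They differed in Isl1, which encodes a LIM-homeodomain transcription factor: Isl1f/f in the mutant group and Isl1+/+ in the control group. Both groups received tamoxifen at embryonic day E10.5 and were harvested 36 hours later, and the stage label reads E12.5. Nodes of 1 genotype were pooled, digested with collagenase and trypsin, depleted of endothelial cells with CD31 beads and sorted for tdTomato, so 1 library stands for each genotype. How many embryos went into a pool is not stated in the labels. Since no genotype has a second library, replicate error is unknown and nothing was tested. Differences are described by size, and an interval is an exact 95% interval for counting error alone.

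The extracellular matrix is the network of proteins and sugars that cells secrete around themselves. In a basement membrane, the thin sheet that surrounds each heart muscle cell and underlies each epithelium, laminins made of an alpha, a beta and a gamma chain form a net that nidogens, perlecan and agrin join to a net of collagen type IV. The interstitial matrix between cells holds fibronectin, collagen fibrils with their small proteoglycans, elastic microfibrils built on fibrillins, and the hyaluronan and versican gel that fills the embryonic heart. Syndecans and glypicans are proteoglycans of the cell surface, where their heparan sulfate chains bind matrix proteins and growth factors. Much of the interstitial matrix of the heart is made by mesenchymal cells, and basement membrane components are made by muscle cells as well.

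The libraries held 110117186 reads in the control group and 119018888 in the mutant group. Levels are given in RPKM, the deposited reads scaled to exon length and library size, and a fold in the text is the ratio of both RPKM values. Isl1 measured 7.65 RPKM in control and 1.52 RPKM in mutant cells, which is 5.02-fold lower (interval 4.53 to 5.56). Hcn4 itself, the defining channel gene of pacemaker cells, was low in both, at 1.99 and 0.541 RPKM. Heart muscle genes summed to 13599 RPKM in control and 19817 RPKM in mutant cells.

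Matrix genes were lower in the mutant library in 38 of 40 cases, beside 67.2% of all genes in the table. The median member was 1.86-fold lower, and the median of all genes was 1.16-fold lower. A gene was called lower when the ratio of (mutant RPKM + 1) to (control RPKM + 1) was at least 2-fold down. By this rule 9 of 40 members were called lower, beside 4.01% of all genes, and 0 were called higher, beside 1.11% of all genes. The 9 were Mfap4, Nid1, Matn2, Tnc, Aebp1, Thbs1, Emilin1, Thbs2 and Fn1. The added 1 RPKM understates low genes, and by the plain ratio 14 members were at least 2-fold lower, beside 14% of all genes, and 0 members were at least 2-fold higher, beside 3.27% of all genes. The counting interval of each of the 40 members left out a ratio of 1, also that of Sdc2 at 1.03-fold. At this depth small differences do so, and the share over all genes is not given here. Summed over all members the level went from 1327 to 947 RPKM, 71.4% of control. In a sorted bulk sample, fewer cells of a type and less RNA per cell cannot be told apart.

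**Figure D1:**
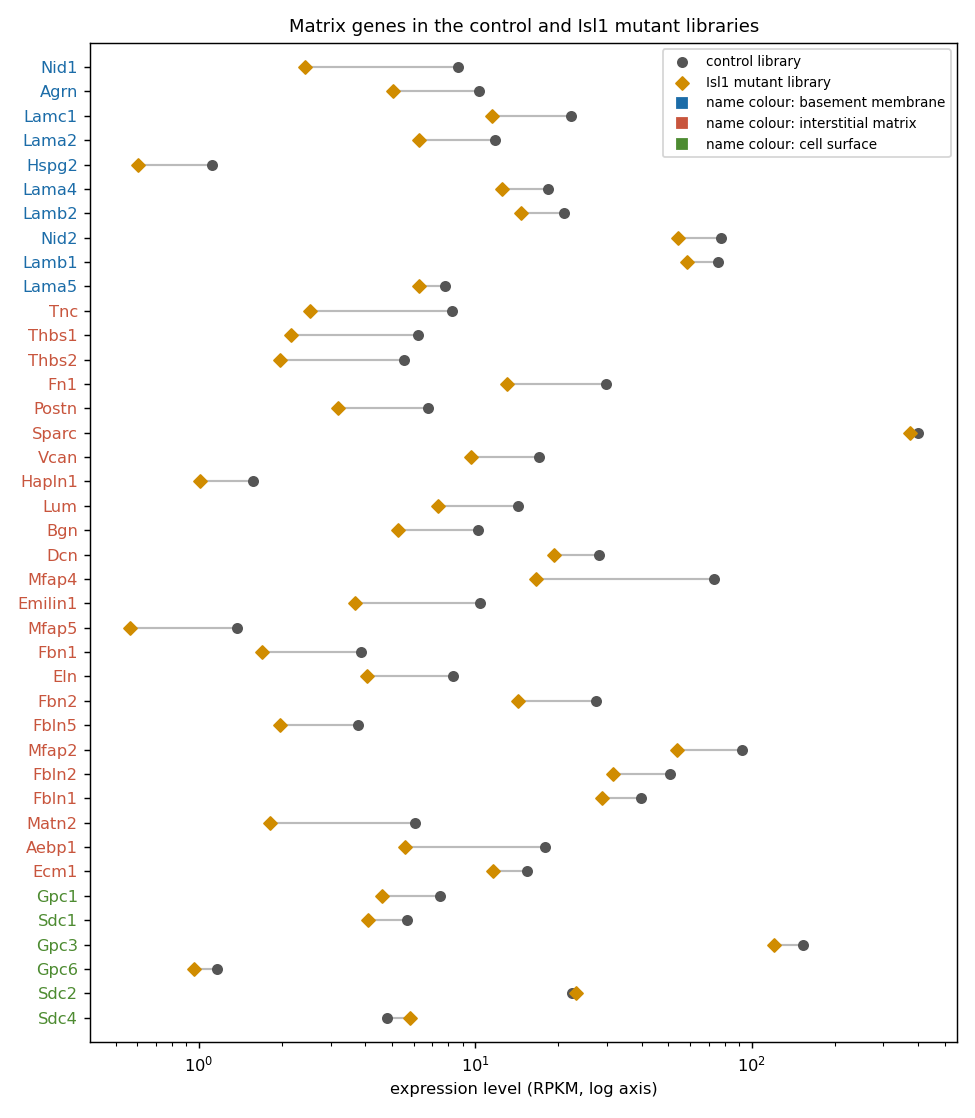
Expression level of 40 matrix genes in RPKM on a log axis, with a grey circle for the control library and an orange diamond for the Isl1 mutant library, 1 library each. The diamond lies left of the circle for 38 genes, farthest for Mfap4, and right of it for Sdc2 and Sdc4.

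Promoter sequence was taken for members from RefSeq (GRCm38.p6), since the genes moved largely in 1 direction in a transcription factor mutant. Entries matched 25 of the 40 members. The 250 bases before the outermost start site are shown for the lowest basement membrane gene, for the interstitial gene with the lowest ratio among those with an entry, and for the member with the highest ratio. Capitals mark GC boxes (GGGCGG on either strand), the letters TATAAA as read, and the TEAD letters GGAATG on either strand.
Nid1, chr13:13437352-13437601, plus strand: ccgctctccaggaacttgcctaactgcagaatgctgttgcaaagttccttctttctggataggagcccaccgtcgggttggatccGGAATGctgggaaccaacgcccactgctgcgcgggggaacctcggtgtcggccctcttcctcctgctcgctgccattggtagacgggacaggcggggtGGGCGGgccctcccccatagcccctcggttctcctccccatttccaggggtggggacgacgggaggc
Tnc, chr4:64047016-64047265, minus strand: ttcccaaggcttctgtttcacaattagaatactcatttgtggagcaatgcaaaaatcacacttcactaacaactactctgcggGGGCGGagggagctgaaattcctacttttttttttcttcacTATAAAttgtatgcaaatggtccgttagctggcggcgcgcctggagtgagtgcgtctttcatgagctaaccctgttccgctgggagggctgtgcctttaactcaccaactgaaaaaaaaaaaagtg
Sdc4, chr2:164443189-164443438, minus strand: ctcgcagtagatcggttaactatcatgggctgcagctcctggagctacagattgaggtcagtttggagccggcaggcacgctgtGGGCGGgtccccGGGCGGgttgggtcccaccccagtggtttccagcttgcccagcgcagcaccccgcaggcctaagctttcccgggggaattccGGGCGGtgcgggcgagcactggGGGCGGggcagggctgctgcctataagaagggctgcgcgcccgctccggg
The Nid1 window held 1 GC box 67 bases before the start and the TEAD letters 165 bases before it. The Tnc window held the letters TATAAA 126 bases and a GC box 167 bases before the start, and the Sdc4 window held 4 GC boxes.

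Over all 31 windows of these 25 genes, a GC box was found in 61.3%, beside 32.7% of the 32851 windows in the RefSeq table. Member windows were also richer in G and C, at a median of 60.8% beside 52.4%. The RefSeq windows cover 27025 genes and were not limited to the genes measured here. The letters TATAAA, counted at any place in the window, were in 12.9% of member windows (Ecm1, Postn and Tnc), beside 7.59% of all windows. The letters CTAATG, searched on both strands as a core for ISL1, were in 0 of 31 windows and in 6.36% of all windows. The AP-1 letters TGANTCA were in 1 window (Ecm1) and in 6.75% of all windows, and the TEAD letters in 2 windows (Mfap2 and Nid1) and in 12.6% of all. These matches are letters in a window of 250 bases and say nothing of binding. CTAATG and GGAATG both end in AATG but cannot match at the same place on the same strand.

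The basement membrane genes came to 10 measured members, and 10 of 10 were lower in the mutant library, beside 67.2% of all genes. Their folds ran from 1.24 to 3.57, with a median of 1.66. Only Nid1 passed the size rule, 1 of 10 beside 4.01% of all genes.

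Nidogens bridge laminin and collagen type IV. Nid1 (ENSMUSG00000005397, chromosome 13, 13529869 to 13604542, mm9) measured 8.67 RPKM in control and 2.43 RPKM in mutant cells. Its fold of 3.57 lower (interval 3.31 to 3.86) rested on 2877 and 871 reads or more. Nid2, its paralog, stood at 77.7 and 54.4 RPKM, 1.43-fold lower (interval 1.41 to 1.45). The more abundant nidogen therefore differed less: the fold of Nid1 was 2.50 times that of Nid2 (interval 2.31 to 2.70, counting error only). Nid1 made up 10.0% of the nidogen level in control and 4.28% in mutant cells. The ends of Nid2 and 2700060E02Rik share 386 bases on opposite strands, and the sources do not say that counting used strand. That neighbour stood at 83.1 and 78.0 RPKM.

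Laminin chains were lower together, by less than Nid1. Lamc1, the gamma chain shared by most laminins, went from 22.2 to 11.5 RPKM and was 1.92-fold lower (interval 1.87 to 1.97). Lama2, the alpha chain of muscle laminin, went from 11.8 to 6.26 RPKM, or 1.88-fold lower (interval 1.83 to 1.93). Lama4, an alpha chain of vessels and muscle, went from 18.3 to 12.5 RPKM, 1.46-fold lower. The 3 remaining chains had the smaller differences. Lamb1 went from 75.8 to 58.4 RPKM (1.30-fold lower), Lamb2 from 21.001 to 14.6 RPKM (1.43-fold lower), and Lama5, an alpha chain of many epithelial basement membranes, from 7.79 to 6.28 RPKM (1.24-fold lower, interval 1.19 to 1.29).

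Added up by chain type, the level per length was highest for the beta chains in both libraries. Alpha chains summed to 37.9 RPKM in control and 25.1 RPKM in mutant cells, beta chains to 96.8 and 73.0 RPKM, and the gamma chain Lamc1 stood alone at the values above. In mutant cells Lama2 and Lama5 were nearly level, while Lama2 was the higher of this pair in control cells. Lama2 made up 31.1% of the alpha level in control and 24.99% in mutant cells, while Lama5 went from 20.6% to 25.1%. The fold of Lama2 was 1.52 times that of Lama5 (interval 1.45 to 1.59). Lama4 made up 48.3% and 49.9%.

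Agrin and perlecan are large heparan sulfate proteoglycans of the basement membrane, and agrin is best known for gathering acetylcholine receptors at the nerve-muscle junction. Agrn went from 10.4 to 5.02 RPKM and was 2.06-fold lower (interval 1.98 to 2.14). Hspg2, the perlecan gene, was near the lower limit of the table at 1.11 and 0.602 RPKM. It was 1.85-fold lower as deposited (interval 1.68 to 2.04), but on the RPKM + 1 scale its log2 ratio of -0.40 turned to 0.19 once the trend of all genes with level and length was removed.

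**Figure D2:**
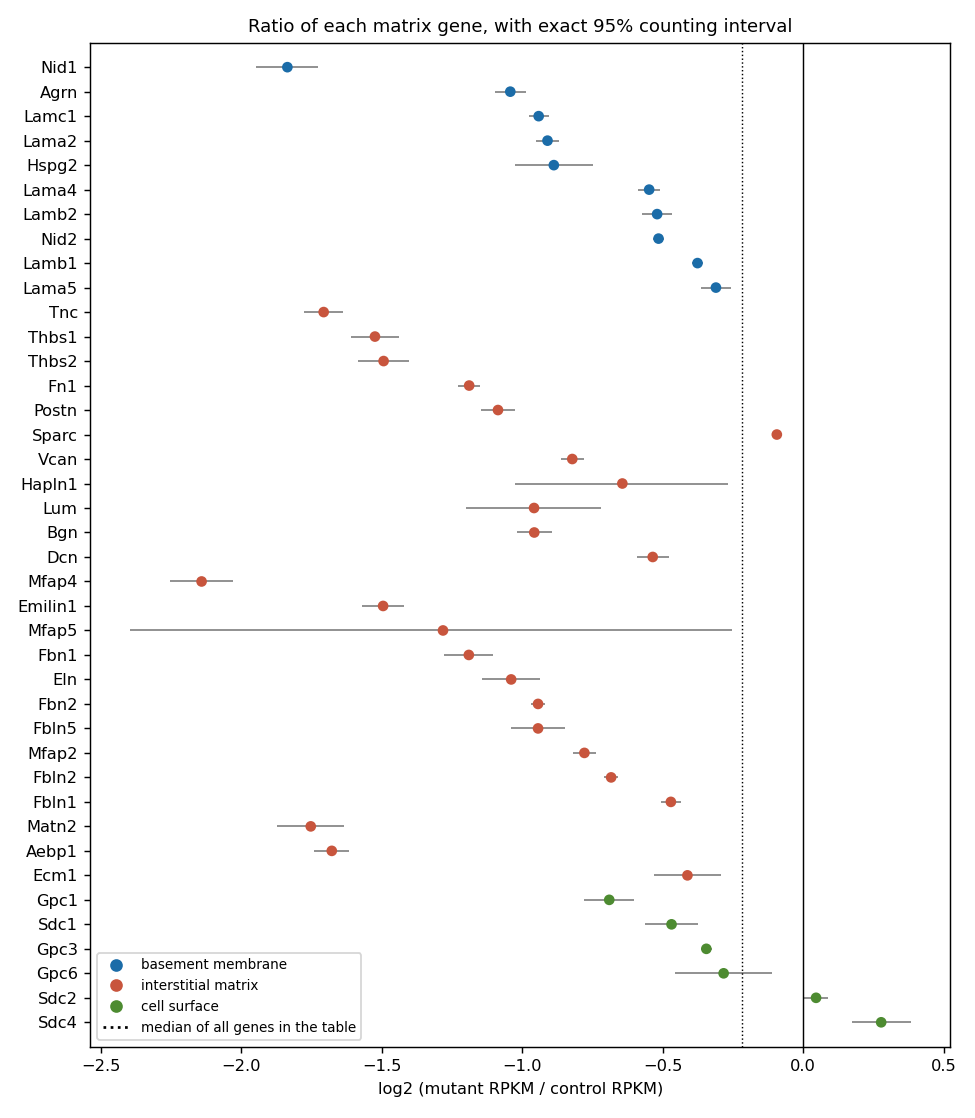
Log2 ratio of mutant to control RPKM for each matrix gene, ordered within its group, with exact 95% counting intervals and 1 library per genotype. Nid1 stands apart within the basement membrane genes, Sparc is the interstitial gene nearest 0, and the dotted line is the median of all genes, at -0.22.

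Interstitial matrix genes came to 24 measured members, all 24 lower as deposited, beside 67.2% of all genes. Their median fold was 1.999, and folds ran from 1.07 to 4.41. The size rule called 8 of 24 lower, beside 4.01% of all genes, and at least a 1.5-fold difference on the same scale was reached by 19 of 24, beside 17.7% of all genes. Sparc alone made up a large part of the summed level. With Sparc the sum went from 878 to 616 RPKM, 70.2% of control, and without it from 478 to 241 RPKM, 50.5% of control.

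Fibronectin and the matricellular proteins, which adjust how cells attach to matrix, held 4 of the 8 called genes. Fn1, the fibronectin gene, went from 29.6 to 13.0 RPKM, or 2.28-fold lower (interval 2.22 to 2.34). Tnc, the gene of the anti-adhesive tenascin-C, went from 8.24 to 2.53 RPKM and was 3.26-fold lower (interval 3.11 to 3.42). The non-coding 8030451A03Rik lies on the opposite strand over 67079 bases of Tnc and stood at 3.51 and 0.921 RPKM, so that reads from shared stretches cannot be separated. The ends of Fn1 and Apol7d share 364 bases on opposite strands.

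The thrombospondin genes were lower by nearly equal folds. Thbs1 went from 6.19 to 2.15 RPKM, or 2.88-fold lower (interval 2.71 to 3.05), and Thbs2 from 5.55 to 1.97 RPKM, which is 2.82-fold lower (interval 2.64 to 3.002). The ratio of their folds was 1.02 (interval 0.937 to 1.11), which includes no difference. Postn, the periostin gene of cushion and valve mesenchyme, went from 6.77 to 3.19 RPKM, 2.12-fold lower. Sparc, which encodes a collagen-binding glycoprotein and was the most abundant member, went from 400.2 to 375 RPKM, or 1.07-fold lower (interval 1.06 to 1.07). It differed least of all interstitial genes.

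Microfibril and elastic fibre genes were lower in 10 of 10 cases, beside 67.2% of all genes. The size rule called 2 of 10, beside 4.01% of all genes. Mfap4 (ENSMUSG00000042436, chromosome 11, 61298933 to 61302402, mm9), a microfibril-associated glycoprotein gene, had the lowest ratio of all members. It went from 73.2 RPKM in control to 16.6 RPKM in mutant cells. Its fold of 4.41 lower (interval 4.08 to 4.77) rested on 3249 and 796 reads or more. Its end shares 89 bases with Mapk7 on the opposite strand, which stood at 9.85 and 6.78 RPKM. Emilin1, the gene of an elastin interface glycoprotein, went from 10.4 to 3.69 RPKM and was 2.82-fold lower (interval 2.67 to 2.97).

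Fibrillins form the core of microfibrils, and the embryonic form was the main one here. Fbn2 went from 27.4 to 14.2 RPKM, or 1.92-fold lower (interval 1.89 to 1.956), and Fbn1 from 3.85 to 1.69 RPKM, which is 2.28-fold lower (interval 2.15 to 2.42). The fold of Fbn1 was 1.19 times that of Fbn2 (interval 1.12 to 1.26), but this order held for the plain ratio only. On the RPKM + 1 scale the log2 ratios were -0.85 for Fbn1 and -0.90 for Fbn2. With the trend of all genes with level and length removed, they were -0.48 and -0.75. Eln, the elastin gene, went from 8.34 to 4.06 RPKM, 2.06-fold lower. Fbln5, a fibulin needed to assemble elastic fibres, went from 3.78 to 1.97 RPKM, 1.92-fold lower. The other 2 fibulins differed less by the plain ratio, Fbln2 going from 50.5 to 31.4 RPKM (1.61-fold lower) and Fbln1 from 39.9 to 28.8 RPKM (1.39-fold lower). On the RPKM + 1 scale with the level and length trend removed, the log2 ratios were -0.62 for Fbln2, -0.45 for Fbln5 and -0.44 for Fbln1. Among the small microfibril proteins, Mfap2 went from 92.0 to 53.6 RPKM, or 1.72-fold lower (interval 1.67 to 1.77). Its relative Mfap5 was scarce, at 1.37 and 0.563 RPKM, and its fold of 2.43 rested on as few as 27 and 12 reads (interval 1.19 to 5.27). By the plain ratio and these minimum read numbers, Mfap2 and Mfap5 could not be told apart in fold. On the RPKM + 1 scale with the level and length trend removed, the log2 ratios were -0.88 for Mfap2 and -0.07 for Mfap5.

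**Figure D3:**
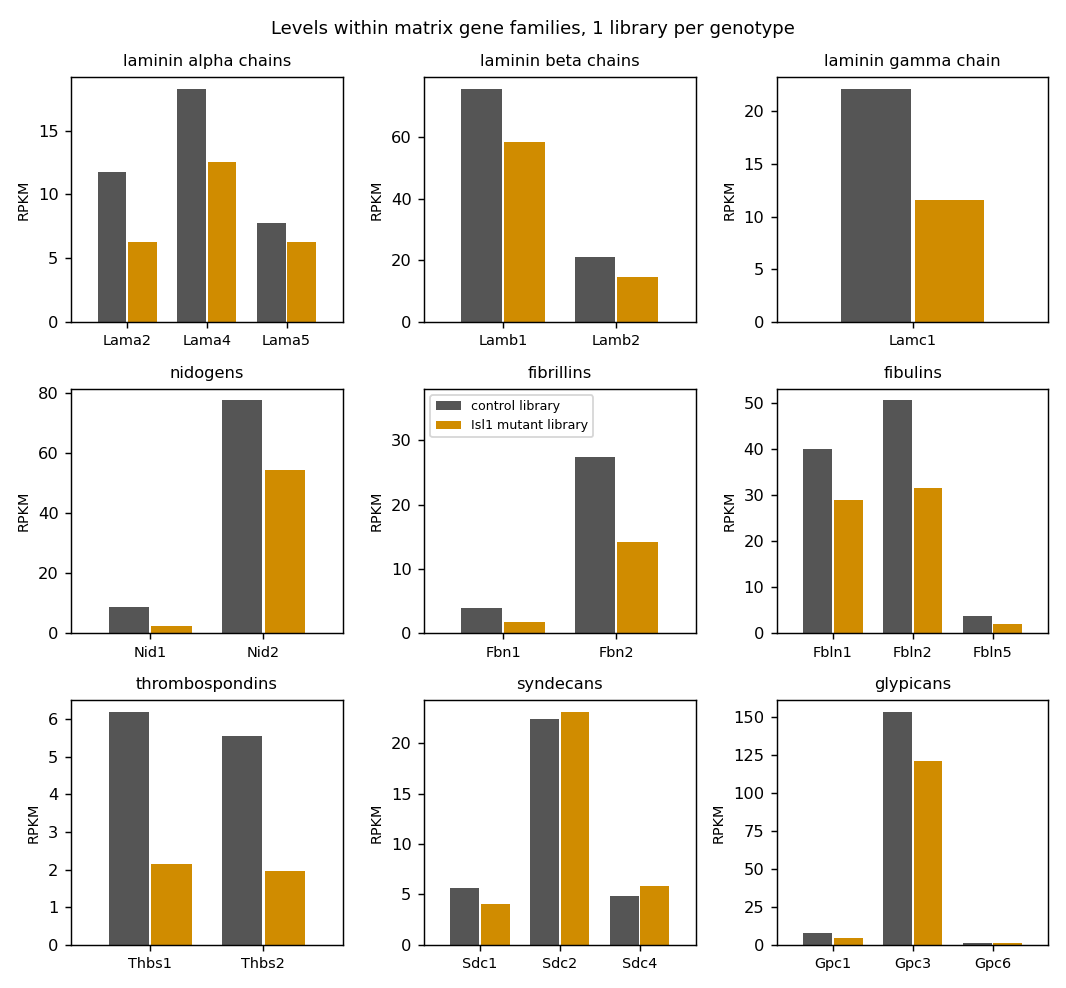
Levels in RPKM of matrix gene families, with grey bars for the control library and orange bars for the Isl1 mutant library, 1 library each and no error bars. Mutant bars are lower in each panel but that of the syndecans, where Sdc2 and Sdc4 are higher, and the more abundant member of each nidogen and fibrillin pair is Nid2 and Fbn2.

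Small leucine-rich proteoglycans bind collagen fibrils and set their width. Lum, the lumican gene, went from 14.3 to 7.36 RPKM and was 1.94-fold lower (interval 1.65 to 2.30). Bgn, the biglycan gene, went from 10.2 to 5.25 RPKM, or 1.94-fold lower (interval 1.86 to 2.03). Dcn, the decorin gene, went from 27.9 to 19.3 RPKM and was 1.45-fold lower (interval 1.39 to 1.51). All 3 were lower and 0 passed the size rule, beside 67.2% and 4.01% of all genes. Dcn and Lum lie 47358 bases apart on chromosome 10 (mm9), and the fold of Dcn was 0.746 times that of Lum (interval 0.631 to 0.882).

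Versican and its link protein hold hyaluronan in the cardiac jelly. Vcan, the versican gene, went from 17.1 to 9.65 RPKM, or 1.77-fold lower (interval 1.72 to 1.82). Hapln1, the link protein gene, went from 1.57 to 1.01 RPKM and was 1.56-fold lower (interval 1.204 to 2.03). These neighbours on chromosome 13 lie 43478 bases apart (mm9). By the plain ratio, their folds did not differ beyond counting error (ratio 1.13, interval 0.877 to 1.46). On the RPKM + 1 scale with the level and length trend removed, the log2 ratios were -0.56 for Vcan and -0.06 for Hapln1.

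The remaining interstitial genes included 2 of the lowest ratios. Matn2, the gene of the filament-forming adaptor matrilin-2, went from 6.08 to 1.80 RPKM, or 3.37-fold lower (interval 3.10 to 3.66). Aebp1, which encodes a secreted collagen-binding form as well as a nuclear one, went from 17.9 to 5.60 RPKM and was 3.20-fold lower (interval 3.06 to 3.34). Ecm1, a secreted glycoprotein gene, differed less, going from 15.4 to 11.6 RPKM (1.33-fold lower, interval 1.23 to 1.44).

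Cell surface heparan sulfate proteoglycans had the median nearest to no difference among the classes, 1.24-fold lower. Of 6 genes, 4 were lower (66.7%) and 2 higher, which is close to the 67.2% lower over all genes. The size rule called 0 of 6 in either direction, beside 4.01% lower and 1.11% higher of all genes. Sdc4, a syndecan of focal adhesions, went from 4.81 to 5.83 RPKM, 1.21-fold higher (interval 1.13 to 1.30), the highest ratio of all members. Sdc2 stood at 22.4 and 23.1 RPKM, 1.03-fold higher (interval 1.002 to 1.06). Sdc1 went the other way, from 5.64 to 4.08 RPKM, or 1.38-fold lower (interval 1.29 to 1.48). Summed over the 3 syndecans, the level was 32.9 RPKM in control and 33.0 RPKM in mutant cells.

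The glypicans, which are anchored by a lipid tail, were lower in 3 of 3 cases as deposited, beside 67.2% of all genes. Gpc3, a growth-restraining glypican on the X chromosome and the second most abundant member, went from 153 to 121 RPKM and was 1.27-fold lower (interval 1.25 to 1.29). Gpc1 went from 7.45 to 4.62 RPKM, or 1.61-fold lower (interval 1.52 to 1.72). Gpc6 was scarce, at 1.17 and 0.960 RPKM (1.22-fold lower, interval 1.08 to 1.37). For Gpc6 the log2 ratio on the RPKM + 1 scale, -0.15, turned to 0.15 once the trend with level and length was removed.

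The classes were then set side by side on the log2(RPKM + 1) scale. The median was -0.51 for the basement membrane, -0.86 for the interstitial matrix and -0.24 for the cell surface genes, beside -0.18 over all genes. The interstitial median minus that of the basement membrane, -0.35, has no test. It was -0.15 with a pseudocount of 5 RPKM and -0.21 with the trend of all genes with level and length removed. The ranges of both classes overlap, as Nid1 lay below all interstitial genes but Mfap4 and Aebp1, and Sparc above all basement membrane genes. Taken between means, the difference was -0.23. The basement membrane median was -0.51 also in the level range of 5 RPKM and more, and the interstitial one -0.89.

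The ratio moved with level and length over all genes, and matrix genes are long. All genes below 2 RPKM had a median log2 ratio of -0.63, those from 5 to 10 RPKM -0.19 and those from 20 to 100 RPKM -0.02. Among genes of 2 to 100 RPKM, those with under 2 kb of exons had a median of -0.04 and those over 8 kb -0.33. The members had a median exon length of 6181 bases, beside 4261 over all matched genes. Members, taken at any level, had a median log2 ratio of -0.94 over 8 kb (13 genes) and -1.23 from 6 to 8 kb (10 genes). It was -0.64 from 4 to 6 kb (7 genes), -0.38 from 2 to 4 kb (8 genes) and -1.46 under 2 kb (2 genes). Over the members, the Spearman correlation of log2 ratio with exon length was -0.19. Compared with the median of genes of like level and length, 36 of 40 members were lower, beside 49.9% of all genes. With this trend removed, 6 of 40 were called lower, beside 1.2% of all genes, namely Mfap4, Aebp1, Nid1, Emilin1, Matn2 and Tnc. The basement membrane median became -0.45 and the interstitial one -0.65.

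**Figure D4:**
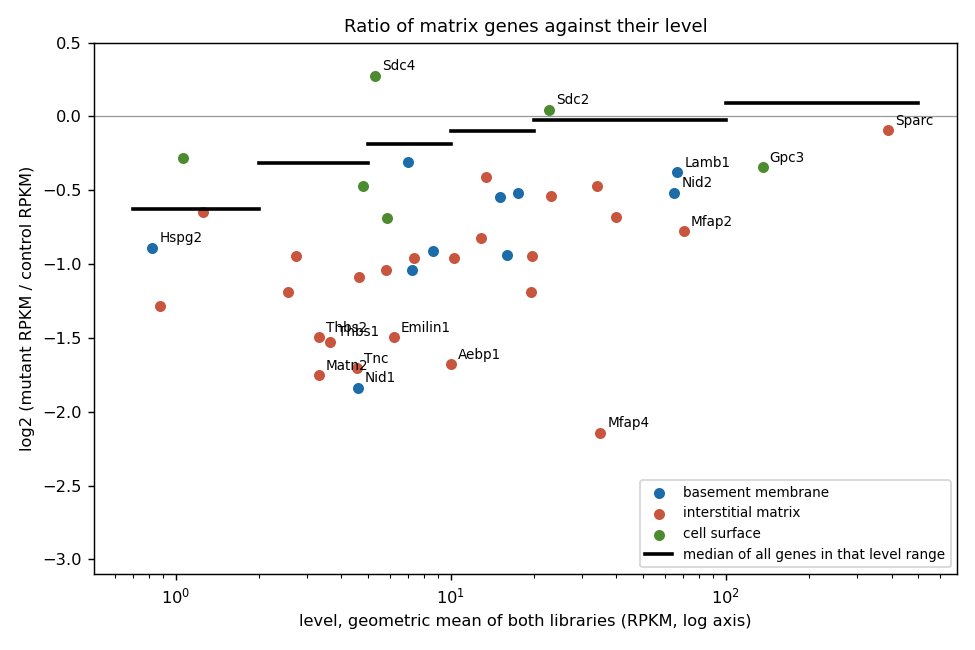
Log2 ratio of mutant to control RPKM against the geometric mean level of both libraries (RPKM, log axis), with 1 point per matrix gene and a black bar for the median of all genes in each level range. Most points lie under the bar of their range, while Gpc6, Sdc4 and Sdc2 lie above it.

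Other matrix genes, from 10 lists of 152 genes, were looked at beside the members. Of 113 genes in the table, 90 were lower (79.6%) and 23 higher, beside 67.2% lower over all genes. The size rule called 10 lower (8.85%, beside 4.01% of all genes) and 1 higher (beside 1.11% of all genes). With the level and length trend removed it called 4 lower and 3 higher, beside 1.2% and 2.76% of all genes, and with a pseudocount of 5 RPKM 2 lower and 1 higher, beside 0.287% each. Further basement membrane components were lower in 13 of 14 cases, and the 1 called was Smoc1 (1.88 and 0.133 RPKM). They included Col18a1, a collagen with heparan sulfate chains, at 55.5 and 29.9 RPKM (1.86-fold lower). Col4a6, a chain of collagen type IV, was 1.89-fold lower (15.02 to 7.97 RPKM) and Fras1, a basement membrane gene of epithelia, 2.14-fold lower (9.63 to 4.49 RPKM).

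Receptors for laminin and matrix were lower in 13 of 18 cases (72.2%, beside 67.2% of all genes) and higher in 5. The size rule called 1 lower, Itga4 (2.42 and 0.627 RPKM), beside 4.01% of all genes. Itga5, the alpha chain gene of the fibronectin receptor, was 1.70-fold higher (9.87 to 16.8 RPKM). Itga1, a collagen receptor gene, was 1.95-fold higher (2.58 to 5.01 RPKM). Itga9 was 1.68-fold lower (6.01 to 3.57 RPKM). Among hyaluronan and versican genes, 7 of 9 were lower (77.8%, beside 67.2% of all genes). Adamts1, a protease that cleaves versican and the only one called, was 2.48-fold lower (118 to 47.7 RPKM), Cd44, the hyaluronan receptor gene, 2.03-fold higher (3.81 to 7.73 RPKM) and Tmem2, a hyaluronidase gene, 1.47-fold lower (11.3 to 7.69 RPKM).

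Heparan sulfate genes were mixed, with 10 of 16 lower (62.5%, beside 67.2% of all genes) and 6 higher. The size rule called 2 of them lower, Ext2 and Sulf1, beside 4.01% of all genes. Ext2, a subunit gene of the polymerase that builds the chains, was 2.63-fold lower (13.1 to 4.97 RPKM), Sulf1, which trims their sulfates, 2.47-fold lower (21.5 to 8.71 RPKM), and Glce, an epimerase gene of the same route, 2.36-fold lower (5.60 to 2.38 RPKM). Other cell surface proteoglycans gave 2 of 3 lower and 0 called, with Gpc4 1.203-fold higher (19.4 to 23.4 RPKM). Chondroitin and dermatan sulfate genes were lower in 9 of 10 cases and 0 were called, with Chsy1 and Dse each 1.26-fold lower. Further leucine-rich proteoglycans were lower in 3 of 3 and 0 were called, with Omd 1.41-fold lower.

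The size rule called 4.01% of all genes lower and 1.11% higher. Genes of elastic fibre assembly were lower in 13 of 14 cases (92.9%), beside 67.2% of all genes. Those called were Ltbp3 (4.39 and 1.24 RPKM) and Loxl4, at 1.16 RPKM in control cells and, in mutant cells, at the fill value that the table holds in place of a read number. At a bound of 3 reads for the mutant library Loxl4 was still past the size rule (log2 ratio -1.01). Others included the latent TGF-beta binding protein gene Ltbp1 at 1.63-fold lower (7.99 to 4.89 RPKM). Proteases and their inhibitors were lower in 14 of 17 cases. Those called were Adam12 (1.61 and 0.143 RPKM) and Adamts2 (1.27 and 0.0733 RPKM). Adamts10 was 1.85-fold lower (10.1 to 5.47 RPKM) and the gelatinase gene Mmp2 1.82-fold lower (22.5 to 12.3 RPKM). Further matricellular genes were lower in 6 of 9, with 1 called in each direction. Tgfbi, an adhesion protein gene induced by TGF-beta, was 4.07-fold lower (14.1 to 3.46 RPKM), while Ctgf, a growth factor of the same broad class, was 2.95-fold higher (19.3 to 57.0 RPKM). Smoc1, Itga4, Ltbp3, Loxl4, Adam12 and Adamts2 were named after their values were seen, since they made up the counts.

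Markers of cell types, looked at beside the matrix genes, differed in direction from list to list. Of 12 fibroblast and mesenchyme markers, none of them a member, 9 were in the table. Of these, 8 were lower and 5 were called lower, beside 67.2% and 4.01% of all genes. Their summed level went from 391 to 179 RPKM, 45.8% of control. Pdgfra, the defining receptor gene of mesenchymal cells, stood at 9.53 and 1.45 RPKM, and the collagen genes Col3a1 and Col1a2 at 87.6 and 35.0 RPKM and at 58.7 and 23.9 RPKM. With Col1a1 (222 and 112 RPKM), these collagen genes made up most of the summed level in both libraries, and they are matrix genes themselves. Ddr2 was the marker that was higher (1.87 and 2.73 RPKM). Twist1, Thy1 and Meox1 of that list were not analysed here. The part of fibroblasts and mesenchyme in the matrix result was not tested.

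Markers of the other cell types gave the following values. Over all genes, 67.2% were lower, 4.01% were called lower and 1.11% were called higher. Endothelial and endocardial markers were lower in 8 of 10 cases, with Tie1 called, and summed to 35.3 and 21.6 RPKM. Macrophage markers were lower in 9 of 9 with 4 called, and summed to 45.6 and 9.12 RPKM, and red cell markers were lower in 9 of 9 with 8 called, at 357 and 60.0 RPKM. Epicardial markers were split, with 4 of 7 lower and a summed level of 89.5 and 106 RPKM, and Krt19 was called higher (9.77 and 28.8 RPKM). Smooth muscle markers were higher in 6 of 7 cases, with a summed level of 1234 and 1898 RPKM. Tagln was called higher (31.8 and 71.9 RPKM) and Mylk lower (5.71 and 0.670 RPKM). Heart muscle markers were higher in 8 of 9, with Nppa called (168 and 861 RPKM). Pacemaker markers, Isl1 among them, were lower in 7 of 8 with 4 called, and summed to 96.1 and 58.5 RPKM. Neural crest and glial markers were scarce, with 2 of 8 in the table and both lower, at a sum of 12.3 and 7.55 RPKM. The part of these cell types in the matrix result was not tested either.

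**Figure D5:**
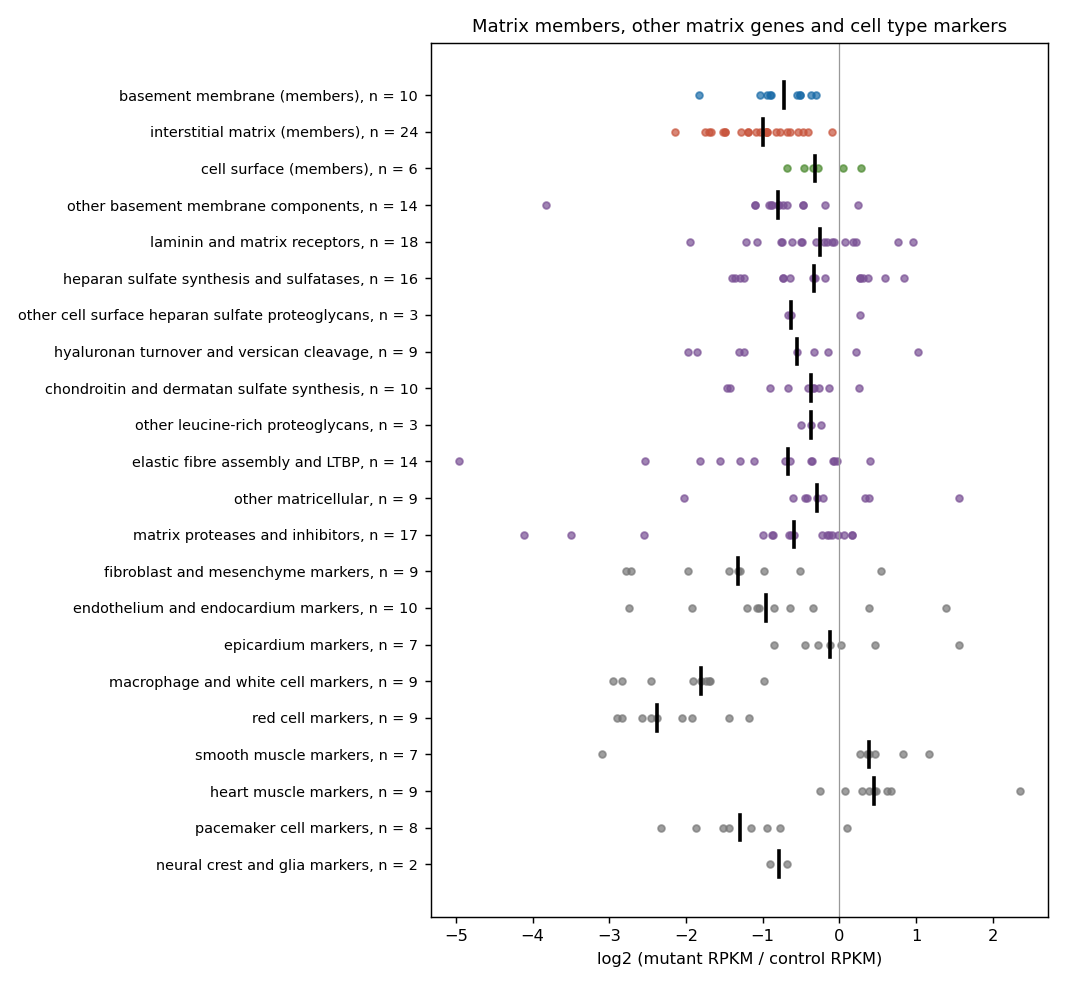
Log2 ratio of mutant to control RPKM for each gene of the 3 classes of matrix members, of 10 lists of other matrix genes and of 9 lists of cell type markers, with 1 point per gene, a black bar at each median and n as the genes in the table. Medians lie left of 0 in all lists but those of smooth muscle and heart muscle markers, and the point farthest left, Loxl4, rests on a fill value in the mutant library.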

How the data were processed

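RNA from sorted sinoatrial node cells was sequenced in 1 control and 1 Isl1 mutant library. Per the labels' protocols, 10 ng of total RNA entered oligo(dT) capture and SMARTer library preparation, with paired reads of 90 bases. The submitters' processing notes list Trim Galore, FastQC, TopHat2, Bowtie2 and mm9, but not the tool behind the gene table. The deposited values are RPKM over constitutive exons, a unit identified from the values: for single-exon small RNA genes, the value multiplied by gene length came within 0.01 of whole reads for 288 of 288 genes in control and 280 in mutant cells. The other 8 hold a fill value worth 1.56 reads. These steps gave the library totals. The authors' deposited log2 change matched the log2 of mutant over control RPKM within 1.89e-07. A signed fold, deposited by the authors and treated as a score, was left unused. Each gene of the table reaches 1 RPKM in at least 1 library, so a gene under that level in both would not be listed.

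For each member, the smallest exon length giving whole reads in both libraries was taken (possible for 99.3% of all genes), so read numbers are minimums and the exact conditional binomial (Clopper-Pearson) 95% intervals may be wider than needed. Reads copied by PCR and mates of a pair are not independent. Intervals on ratios of folds are normal approximations on the log scale from the same reads. The size rule asked for 2-fold with a pseudocount of 1 RPKM and a level of 1 RPKM in at least 1 library. Trends were removed as medians of 10 level by 5 length bins, with exon lengths from GENCODE M21 for 96.1% of genes, matched by Ensembl identifier. Genes named outside the members are up to 3 per list with the largest difference at 5 RPKM or more. Genes that overlap a member are named too. Hcn4, Col1a1, Ddr2 and genes that make up a small count were chosen after their values were seen. The members and lists were chosen with earlier results of these data known. Scripts were tested on simulated data (Python 3.11.15, SciPy 1.17.1).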

Additional observations from a re-analysis of the deposited data

How the results depend on the processing

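As deposited, and with pseudocounts of 0.1 and 5 RPKM, 38 of 40 members were lower, beside 67.2% of all genes. Centring on the median ratio gave 38 as well, beside 60.9%, and removal of the level and length trend 36, beside 49.9%. At a level floor of 5 RPKM, 32 of 34 were lower, beside 61.9%. The 9 members called lower became 14 with a pseudocount of 0.1 (beside 12.6% of all genes) and 14 with none (chosen after seeing the data, 14%). They became 2 with a pseudocount of 5 (0.287%) and 24 at a 1.5-fold threshold (17.7%). Leaving out the 4 overlapping genes gave 6 of 36, beside 4.01% of all genes. In each of these 0 were called higher, beside 0.287% to 4.31% of all genes. The interstitial minus basement membrane difference of -0.35 was -0.15 with a pseudocount of 5, -0.21 with the trend removed, -0.25 with cell surface genes counted as interstitial and -0.23 for means.

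The basement membrane median of -0.51 moved to -0.67 with a pseudocount of 0.1, -0.72 with none and -0.67 as a mean. The interstitial median of -0.86 moved to -0.99 (pseudocount 0.1), -0.999 (none) and, with a pseudocount of 5, -0.59, to -0.65 with the trend removed and to -0.76 with cell surface genes added. The 10 other matrix genes called lower became 25 (pseudocount 0.1, beside 12.6% of all genes), 27 (none, 14%) and 2 (pseudocount 5, 0.287%). They became 4 (floor of 5 RPKM, 2.73%), 4 (trend removed, 1.2%) and 37 (1.5-fold, 17.7%). The 1 called higher became 2 (pseudocount 0.1, beside 2.98% of all genes), 2 (none, 3.27%), 3 (trend removed, 2.76%) and 4 (1.5-fold, 4.31%). The fibroblast marker median of -1.06 became -1.32 with a pseudocount of 0.1, -1.33 with none, -0.65 with 5, -1.26 at the floor and -0.88 with the trend removed. Isl1, at -1.78 on this scale, gave -2.25 and -0.96 with pseudocounts of 0.1 and 5. No level floor and summed entries changed 0 results, as each gene reaches 1 RPKM and no member has several entries.

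No paired analysis was possible because each genotype has 1 library, and leaving out a library would leave nothing to compare. By the minimum read numbers, depth limits Mfap5 most among the members, with as few as 27 and 12 reads behind its ratio. The true read numbers are not known, so another member may be limited more.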
